A study of Mus musculus with 10 samples.

Results

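The Hox genes encode homeodomain transcription factors and lie in 4 clusters in the mouse genome. Hox genes were taken as every measured gene whose symbol is Hoxa, Hoxb, Hoxc or Hoxd followed by a number, which gave 30 genes among the 28165 measured. The number is the paralogue group, so that Hoxa5, Hoxb5 and Hoxc5 are cognate genes of different clusters. GENCODE mouse release 21 annotates 39 such genes. The table held 10 of 11 in Hoxa, 9 of 10 in Hoxb, 6 of 9 in Hoxc and 5 of 9 in Hoxd. Hoxa13, Hoxb13, Hoxc11, Hoxc12, Hoxc13 and Hoxd10 to Hoxd13 were not analysed here.

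RNA was sequenced from sorted aortic smooth muscle cells of mouse embryos at embryonic day 15.5, to compare transcripts with and without elastin, the main protein of elastic fibres. The groups were Acta2-GFP embryos of genotype Eln(-/-), with 5 libraries, and Acta2-GFP embryos of genotype Eln(+/+), also with 5. All came from crosses between Eln(+/-) parents, and cells of both genotypes were sorted as GFP+, CD31- and DAPI-, that is, as living reporter-positive cells without the endothelial surface protein. The reporter follows Acta2, which codes for smooth muscle actin and is also made outside smooth muscle in an embryo. The labels name the aorta without a segment, and they give neither the Eln allele nor the number of embryos behind a library. Nothing says that replicates are separate embryos, and the p-values below therefore rest on a spread between libraries that may be technical.

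Along each cluster the genes lie in the order of their numbers, and in the embryo low-numbered genes are switched on earlier and further towards the head than high-numbered ones. The resulting combination of Hox proteins, often called a Hox code, gives cells a position along the body axis. Retinoic acid opens the clusters from the low-numbered end, Polycomb proteins keep genes silent, Trithorax proteins keep them active, and HOX proteins bind DNA with PBX and MEIS partners. In the adult mouse aorta, smooth muscle of the arch and of the descending segments carries different Hox transcripts.

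The libraries held between 28367780 and 56371507 counts in Eln-/- and between 26951733 and 63866416 in Eln+/+. Eln itself had 36, 1, 0, 1 and 0 counts in the Eln-/- libraries, against 2409, 105866, 8603, 49878 and 31530 in the Eln+/+ libraries. Acta2 was between 601 and 1740 CPM (counts scaled to library size and composition) in Eln-/- and between 473 and 1190 CPM in Eln+/+. Pecam1, the gene of CD31, was at most 3.41 CPM in Eln-/- libraries and 7.70 CPM in Eln+/+ ones. With Pecam1 included, the 5 endothelium markers summed to between 0.452 and 23.7 CPM in Eln-/- libraries, against 0.86 to 40.8 CPM for Eln+/+. Among them, Tek reached 19.2 CPM in Eln-/- replicate 1 and 37.8 CPM in Eln+/+ replicate 2. The 8 smooth muscle markers summed to between 1120 and 3120 CPM in Eln-/- libraries and between 751 and 1950 CPM in Eln+/+ ones. Acta2, which the reporter follows, and Tagln made up most of that sum. Of the others, Cnn1 was at 16.6 to 352 CPM in Eln-/- and 17.6 to 171 CPM in Eln+/+. Myh11 was at 0.0377 to 119 CPM in Eln-/- and 1.47 to 34.5 CPM in Eln+/+. Markers of some other cells were not near 0. Fibroblast markers summed to between 622 and 11900 CPM in Eln-/- libraries and between 1320 and 7770 CPM in Eln+/+ ones. Heart muscle markers summed to between 11.4 and 478 CPM in Eln-/- libraries and between 1.12 and 475 CPM in Eln+/+ ones, and blood markers to between 15.7 and 3610 CPM in Eln-/- libraries and between 191 and 12700 CPM in Eln+/+ ones. Eln-/- replicates 4 and 5 and Eln+/+ replicate 1 had the fewest detected genes, 15595, 15925 and 15089, where the other 7 libraries had between 18157 and 22951. Their scaling factors (TMM) were 0.486, 0.847 and 0.562, and those of the other 7 lay between 1.13 and 1.37. A factor below 1 raises CPM over counts per total and a factor above 1 lowers it, so where it bears on a result the level scaled by total counts alone (total-count CPM) is given too, a scaling added after the data were seen. These 3 libraries are named beside results in which they stand apart. In bulk libraries, fewer cells of a type and less RNA per cell cannot be told apart.

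The stretch around the transcription start is shown for 4 Hox genes that span the range of levels. Hoxa5 and Hoxa2 were among the most abundant Hox transcripts per length. Hoxb1 and Hoxa11 were at 0 in most libraries. Each sequence is RefSeq's window of 250 bases before to 50 bases after the start, in build GRCm38.p6, read 5′ to 3′ on the gene's own strand. Capitals mark a match of TGATNNAT, the joint PBX-HOX motif, on either strand. The Hoxa5 window is chr6:52204538-52204837 (minus strand), the Hoxa2 window is chr6:52164782-52165081 (minus strand), the Hoxb1 window is chr11:96365508-96365807 (plus strand) and the Hoxa11 window is chr6:52245761-52246060 (minus strand).
Hoxa5: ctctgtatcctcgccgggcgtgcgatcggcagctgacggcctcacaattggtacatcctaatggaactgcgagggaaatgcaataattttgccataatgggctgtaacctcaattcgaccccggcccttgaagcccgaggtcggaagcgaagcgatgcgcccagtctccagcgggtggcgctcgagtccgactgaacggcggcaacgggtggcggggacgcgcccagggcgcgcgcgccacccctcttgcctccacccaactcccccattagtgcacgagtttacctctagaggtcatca
Hoxa2: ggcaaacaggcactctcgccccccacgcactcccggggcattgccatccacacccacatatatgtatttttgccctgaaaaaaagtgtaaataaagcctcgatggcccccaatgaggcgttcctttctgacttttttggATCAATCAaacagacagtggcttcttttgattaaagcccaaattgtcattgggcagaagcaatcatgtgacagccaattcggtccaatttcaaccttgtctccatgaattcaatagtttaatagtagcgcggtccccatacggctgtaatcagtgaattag
Hoxb1: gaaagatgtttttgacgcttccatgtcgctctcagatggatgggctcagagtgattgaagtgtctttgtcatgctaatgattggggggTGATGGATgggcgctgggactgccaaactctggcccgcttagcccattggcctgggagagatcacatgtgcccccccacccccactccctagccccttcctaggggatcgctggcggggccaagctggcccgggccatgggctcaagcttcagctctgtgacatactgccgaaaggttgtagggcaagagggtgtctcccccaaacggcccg
Hoxa11: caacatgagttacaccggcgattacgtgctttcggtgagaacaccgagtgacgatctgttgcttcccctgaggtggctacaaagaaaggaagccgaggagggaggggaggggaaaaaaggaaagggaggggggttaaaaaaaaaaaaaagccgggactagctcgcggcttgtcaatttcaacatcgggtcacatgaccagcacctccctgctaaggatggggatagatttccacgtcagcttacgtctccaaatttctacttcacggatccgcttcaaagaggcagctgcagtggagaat

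The Hoxa5 window held 29 CpG dinucleotides, Hoxa11 held 15, Hoxb1 held 10 and Hoxa2 held 9, against a median of 7 over the 32851 windows of the RefSeq table. Windows were found for 17 of the 30 measured Hox genes, 18 windows in all, since Hoxa10 has more than 1. Their median was 13.5 CpG. TGATNNAT was found in 3 of the 18 windows (16.7%), those of Hoxa2, Hoxb1 and Hoxb8, and in 8.85% of all windows. The homeodomain core TAATTA was in 0 of the 18, and in 5.29% of all windows. TATAAA was in 3 of the 18 (16.7%), and in 13.6% of all. CCAAT was in 11 of the 18 (61.1%), and in 37.4% of all. Both strands were searched for each motif. A match is a stretch of letters and was not tested as a binding site. The 3 genes with a TGATNNAT match lay at very different levels, from 8.40 CPM per kb for Hoxa2 to 0.0913 CPM per kb for Hoxb1.

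Sorted aortic cells of both genotypes carried mainly low- and middle-numbered Hox transcripts. To compare genes with each other, CPM was divided by the length of the gene's annotated exons in kilobases. On that scale and averaged over the 10 libraries, Hoxb2 was highest at 12.1 CPM per kb, followed by Hoxa5 at 10.0, Hoxa2 at 8.40, Hoxc4 at 8.23, Hoxb7 at 7.19, Hoxb6 at 6.94 and Hoxb5 at 6.79. Hoxa7 was at 5.23 and Hoxc5 at 2.51. The genotype means of Hoxb2 were 12.6 ± 2.12 CPM per kb in Eln-/- and 11.5 ± 5.18 CPM per kb in Eln+/+ (SD, n = 5 each, as everywhere below). The order among the leaders was not resolved by these libraries: Hoxb2 had the highest level per kb in 3 of the 10, and Hoxa2, Hoxa5, Hoxb5, Hoxb7 or Hoxc4 in the others.

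Levels dropped steeply at the high-numbered end. Of the 7 measured genes of paralogue groups 9 to 11, the highest was Hoxc9 at 0.483 CPM per kb. Below it were Hoxa10 at 0.352, Hoxa9 at 0.213, Hoxb9 at 0.166, Hoxc10 at 0.0805, Hoxa11 at 0.0707 and Hoxd9 at 0.0236. Low-numbered Hoxb1 and Hoxd1 were as low, at 0.0913 and 0.0404 CPM per kb. In Hoxd the highest gene was Hoxd4 at 0.631.

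**Figure D1:**
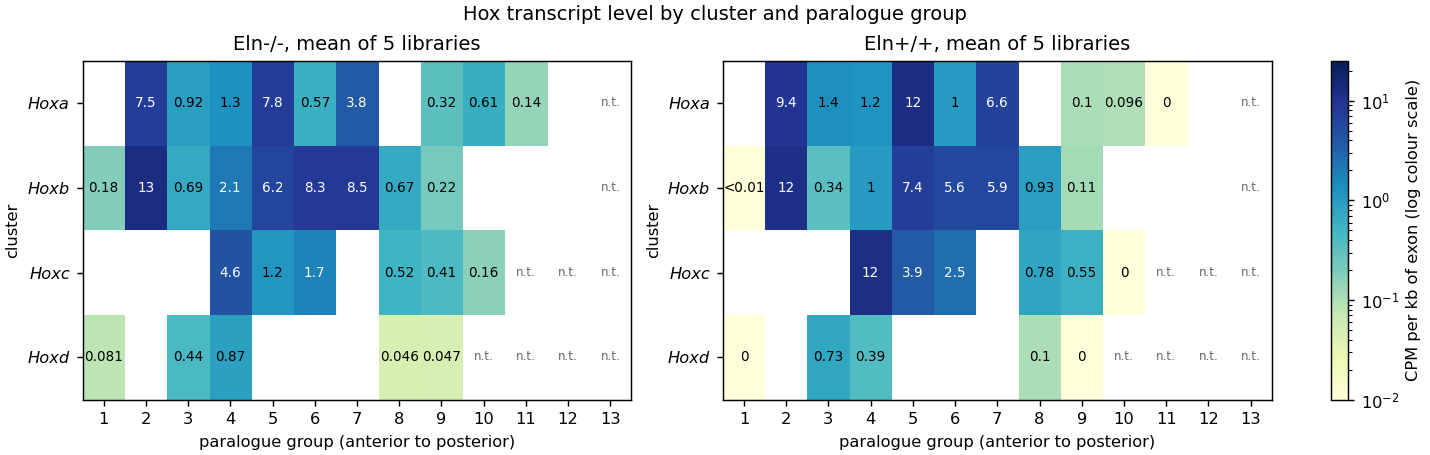
Mean level of each Hox gene in CPM per kb of annotated exon (colour on a log scale, value in the cell) by cluster (vertical) and paralogue number (horizontal), in Eln-/- (left) and Eln+/+ (right, n = 5 each). Cells marked n.t. are annotated genes not in the table analysed and blank cells hold no gene or none reported here; the darkest cells lie in groups 2 to 7 of Hoxa, Hoxb and Hoxc in both genotypes, and no Hoxd mean exceeds 0.873 CPM per kb.

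Paralogue groups 1 to 7 together made up 96.1 ± 3.56% of the summed per-kb Hox level in Eln-/- and 96.9 ± 1.53% in Eln+/+, with ranges of 91.2% to 99.9% in Eln-/- and 95.2% to 99.4% in Eln+/+. The largest shares were those of group 2, 25.9 ± 4.04% in Eln-/- and 25.9 ± 11% in Eln+/+, and group 5, 19.7 ± 9.05% in Eln-/- and 26.9 ± 2.51% in Eln+/+. Group 7 took 15 ± 10.1% in Eln-/- and 12.0 ± 7.45% in Eln+/+, group 6 took 13.5 ± 4.04% in Eln-/- and 9.58 ± 4.90% in Eln+/+, and group 4 took 11.1 ± 3.72% in Eln-/- and 14.9 ± 7.65% in Eln+/+. Group 3 was low in both, at 2.65 ± 1.55% in Eln-/- and 3.05 ± 1.91% in Eln+/+, so the level did not decline evenly with the number. With CPM not divided by length, group 3 was at 5.29% in Eln-/- and 6.31% in Eln+/+. Weighting each paralogue number by its level gave a mean number of 4.62, 4.22, 4.45, 4.06 and 4.24 in the Eln-/- libraries, against 3.77, 4.17, 5.00, 4.69 and 3.70 in the Eln+/+ libraries. The genotypes overlapped, with means of 4.32 ± 0.218 in Eln-/- and 4.27 ± 0.569 in Eln+/+, a difference smaller than the spread in either genotype. These shares are sensitive to which genes are counted, since exons of 14 of the 30 Hox genes overlap another gene and the strand setting of the counting is not given. Without those 14 genes no member of group 2 is left, and the weighted number was 5.82 in Eln-/- and 5.45 in Eln+/+.

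By cluster, Hoxb and Hoxa supplied most of the level. Hoxb made up 50.9 ± 15.7% of the summed per-kb level in Eln-/- and 40.7 ± 20.0% in Eln+/+. Its share was 72.9% and 58.5% in Eln-/- replicates 4 and 5 and 75.4% in Eln+/+ replicate 1, which had few detected genes, and between 24.7% and 49.5% in the other 7. Hoxa made up 36.8 ± 10.6% in Eln-/- and 38.3 ± 17.0% in Eln+/+. Hoxc made up 10.3 ± 6.21% in Eln-/- and 19.4 ± 11% in Eln+/+, ranging over the 10 libraries from 0.758% to 38.7%. Hoxd made up 1.92 ± 1.05% in Eln-/- and 1.62 ± 1.52% in Eln+/+. In each cluster the shares of the genotypes overlapped. Markers of some other cells also differed between these libraries and the other 7. Blood markers summed to 3610 CPM in Eln-/- replicate 4, 392 CPM in Eln-/- replicate 5 and 12700 CPM in Eln+/+ replicate 1, and to between 15.7 and 745 CPM in the other 7. Fibroblast markers summed to 622, 912 and 1320 CPM in the same 3 libraries and to at least 2440 CPM in each other one. Col1a1, Dcn, Lum and Pdgfra were each lower in those 3 than in any other library. Dpt was not, at 203 to 630 CPM in the 3 and 144 to 446 CPM in the other 7. Nor was Tcf21, at 4.11 to 33.6 CPM and 1.79 to 36.0 CPM. Heart muscle markers did not set the 3 apart, with 367, 11.4 and 475 CPM against 1.12 to 478 CPM in the other 7. The part of these markers and of the low number of detected genes in the Hoxb share was not tested.

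**Figure D2:**
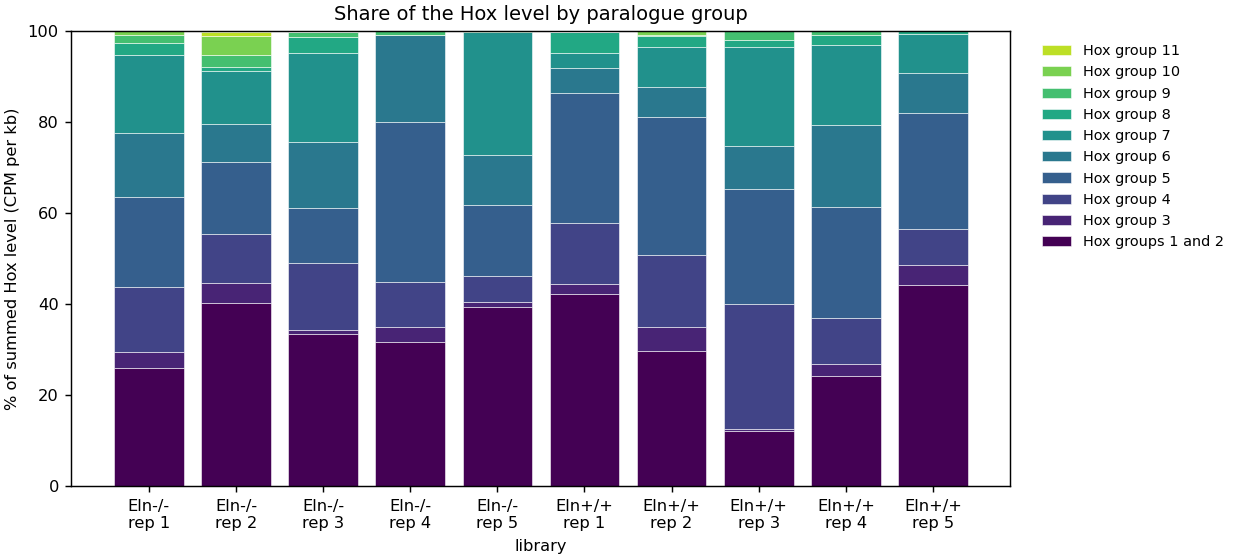
Share in percent (vertical) of the summed per-kb Hox level taken by each paralogue group, stacked from groups 1 and 2 at the bottom to group 11 at the top, in each library (horizontal), the 5 Eln-/- libraries left of the 5 Eln+/+ ones. Groups 1 to 7 fill at least 91.2% of every bar, and the widest top segment, groups 9 to 11, is the 7.75% of Eln-/- replicate 2.

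Between 13 and 28 of the 30 Hox genes had at least 1 count in an Eln-/- library, against between 17 and 25 in an Eln+/+ library. By library the number was 27, 28, 21, 13 and 18 in Eln-/-, against 17, 25, 20, 24 and 19 in Eln+/+. The low values were again those of Eln-/- replicates 4 and 5 and Eln+/+ replicate 1, which also had the 3 smallest totals, so a Hox gene at 0 there is only a gene below a floor (3 counts) of 0.218, 0.113 and 0.198 CPM, where the other libraries had floors between 0.0344 and 0.0668 CPM. Floors cover counting error only. The summed Hox level was 240.0, 181, 195, 173 and 181 CPM in Eln-/-, against 163, 172, 331, 240.0 and 209 CPM in Eln+/+. Scaled by total counts alone, the sum was 311, 238, 227, 84.0 and 153 total-count CPM in Eln-/-, against 91.2, 235, 380, 290.0 and 236 in Eln+/+. On that scale the 3 libraries with few detected genes had the lowest sums, 84.0 to 153 against 227 to 380 in the other 7, while with TMM factors they lay among the others. A count in all 10 libraries was found for 8 genes, among them Hoxa3, Hoxa5 and Hoxb2 to Hoxb6.

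**Figure D3:**
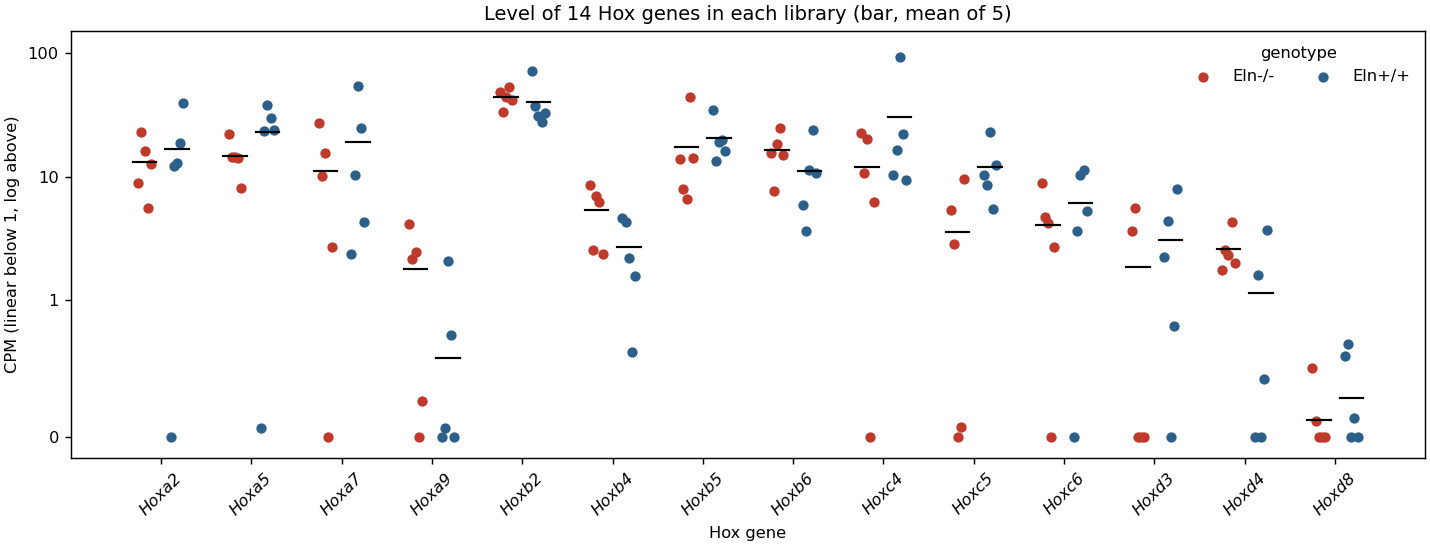
Level in CPM (vertical, linear below 1 and logarithmic above) of 14 Hox genes (horizontal), with 1 point per library, Eln-/- left of Eln+/+, and a bar for the mean of 5 libraries. Points of both genotypes overlap for every gene, Hoxb2 has the narrowest spread, and Hoxc4 reaches 93.6 CPM in 1 Eln+/+ library.

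No Hox gene differed between genotypes at the threshold. In edgeR's quasi-likelihood test with Benjamini-Hochberg adjustment over 15718 genes, 0 of the 22 Hox genes tested passed an adjusted p of 0.05, and percent called over all genes was 0. At an unadjusted p under 0.05 the count was 0 of 22, against 0.515% of all genes tested (81 genes). DESeq2, which gave a p to 21 of the 22 and none to Hoxc9, called 0 Hox genes, against 0.0382% of all genes, and had 0 at an unadjusted p under 0.05, against 1.25%. With limma-voom 0 of 22 were called, against 0.0127% of all genes, and 1 (Hoxc5) had an unadjusted p under 0.05, against 1.71%. Without the filter on low counts, edgeR gave an unadjusted p under 0.05 to 5 of 30 Hox genes, against 7.83% of 27254 genes, and the 5 were Hoxa11, Hoxb1, Hoxc10, Hoxd1 and Hoxd9, with counts in 1 or 2 libraries each (adjusted p 0.599). In 0 of the 22 did the CPM of the genotypes fail to overlap, against 0.305% of all genes tested (48 genes). Log2 fold changes of Eln-/- over Eln+/+ ran from -1.74 to 1.62, with standard errors (SE) from 0.41 to 1.95. Every adjusted p was 1.00, and unadjusted p-values ran from 0.222 to 0.926. Only for 3 genes was the fold change larger than its own SE. Eln itself, with a log2 fold change of -12.19, had the smallest p of all genes and an adjusted p of 0.152 in the same edgeR fit.

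The 22 tested genes had 9 positive and 13 negative fold changes, with a median of -0.37, where all tested genes had a median of 0.02 and 51.5% were positive. Without Eln+/+ replicate 3, which had the highest summed Hox level, the median of the Hox genes was -0.02. In paralogue groups 1 to 4, 6 of 10 fold changes were positive, and in groups 5 to 9, 3 of 12. By cluster the median was -0.44 in Hoxa (3 positive and 5 negative), 0.54 in Hoxb (5 positive and 2 negative), -0.58 in Hoxc (0 positive and 5 negative) and 0.21 in Hoxd (1 of each). The genes of a cluster share their libraries, and none of these counts was tested.

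**Figure D4:**
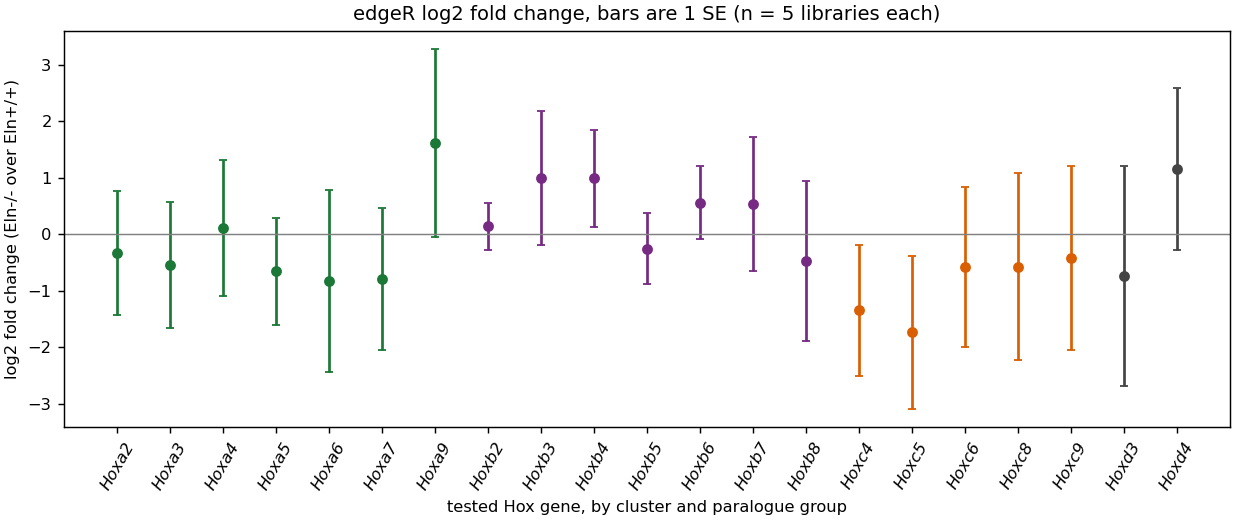
Log2 fold change of Eln-/- over Eln+/+ (vertical) for 21 of the tested Hox genes (horizontal, coloured by cluster), with bars of 1 SE from edgeR's quasi-likelihood fit (n = 5 libraries each). Values run from -1.74 (Hoxc5) to 1.62 (Hoxa9), and only the bars of Hoxb4, Hoxc4 and Hoxc5 do not reach 0.

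Among the low-numbered genes, Hoxb2 was the steadiest. Hoxb2, which in the embryo helps to pattern the hindbrain and the neural crest (chromosome 11), was at 48.3, 33.2, 44.2, 52.9 and 41.9 CPM in Eln-/-, against 71.8, 37.1, 30.8, 27.8 and 32.5 CPM in Eln+/+. The single high CPM is that of Eln+/+ replicate 1, which scaled by total counts alone was at 40.3 total-count CPM, below the 50.7 of Eln+/+ replicate 2. In CPM, the other 4 Eln+/+ libraries lie below the median of the Eln-/- ones. Its means were 44.1 ± 7.41 CPM in Eln-/- libraries and 40.0 ± 18.1 CPM in Eln+/+ ones, with a log2 fold change of 0.14 (SE 0.41), the smallest SE of the 22. Hoxb2 shares exon sequence with the antisense gene Hoxb3os.

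Hoxa2, which specifies the second pharyngeal arch, was at 8.88, 22.8, 16.2, 5.52 and 12.7 CPM in Eln-/-, against 0, 12.2, 12.8, 18.7 and 39.3 CPM in Eln+/+. Eln+/+ libraries held both the lowest and the highest value, and the means of 13.2 ± 6.69 CPM in Eln-/- libraries and 16.6 ± 14.4 CPM in Eln+/+ ones differed by less than either SD (log2 fold change -0.33, SE 1.10). Its promoter window above is 1 of the 3 with a PBX-HOX match, and its exons overlap those of Gm28308.

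In group 1, 2 genes were rare. Hoxb1, a hindbrain gene that maintains its own transcription, had 99 counts in Eln-/- replicate 3 and 1 count in Eln+/+ replicate 2, with 0 in the other 8 libraries. Hoxd1 had 55 counts in Eln-/- replicate 1 and 0 elsewhere.

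Group 3 was low in all clusters. Hoxa3, which in the mouse is needed for the thymus, the parathyroid and the carotid artery, was at 9.99, 11.1, 1.60, 0.218 and 4.82 CPM in Eln-/-, against 2.58, 14.4, 0.487, 14.6 and 8.53 CPM in Eln+/+. Hoxb3 was between 0.0762 and 9.51 CPM in Eln-/- libraries and between 0.333 and 2.64 CPM in Eln+/+ ones. Hoxd3, which helps to shape the first vertebrae, was at 3.59, 5.60, 0, 0 and 0 CPM in Eln-/-, against 2.25, 4.39, 0, 0.808 and 7.86 CPM in Eln+/+, so that both genotypes held libraries with none. Its mean was 1.84 ± 2.61 CPM in Eln-/- libraries and 3.06 ± 3.16 CPM in Eln+/+ ones (log2 fold change -0.73, SE 1.95, the largest SE of the 22).

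The members of group 4 had fold changes of different signs. Hoxb4, which in the mouse also supports blood stem cells, was at 8.53, 2.56, 6.95, 6.24 and 2.37 CPM in Eln-/-, against 4.63, 4.32, 2.21, 0.618 and 1.58 CPM in Eln+/+. In CPM, the 3 highest values are Eln-/- libraries, and the other 2 Eln-/- libraries lie among the Eln+/+ ones. This order did not hold by total counts alone, where Eln+/+ replicate 2 lay above Eln-/- replicate 4. Means were 5.33 ± 2.74 CPM in Eln-/- libraries and 2.67 ± 1.74 CPM in Eln+/+ ones, with a log2 fold change of 1.00 (SE 0.86, unadjusted p = 0.270 in edgeR's test). Hoxd4 was at 1.75, 2.52, 2.32, 4.28 and 2.00 CPM in Eln-/-, against 0, 1.59, 0, 0.428 and 3.72 CPM in Eln+/+. It was present in every Eln-/- library and at 0 in 2 of the Eln+/+ libraries. In CPM, 4 of the 5 Eln+/+ values lie below all Eln-/- values. By total counts alone, Eln+/+ replicate 2 lay above Eln-/- replicates 4 and 5. The log2 fold change was 1.16 (SE 1.43). Leaving out 1 library at a time gave 0.83 to 2.33, the highest without Eln+/+ replicate 5. The fold change was 0.80 with total counts only and 0.63 without the 3 libraries with few detected genes. With limma-voom it was 3.25, and with the replicate number as a block 3.39. Hoxd4 exons overlap those of Hoxd3 and of 2 further transcripts.

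Hoxc4, in contrast, was at 22.6, 10.6, 20.1, 0 and 6.26 CPM in Eln-/-, against 10.2, 16.3, 93.6, 22.3 and 9.40 CPM in Eln+/+. A single Eln+/+ library, replicate 3, stood at more than all others, and the remaining 4 lie within the Eln-/- range. Means were 11.9 ± 9.42 CPM in Eln-/- libraries and 30.4 ± 35.7 CPM in Eln+/+ ones, with a log2 fold change of -1.35 (SE 1.16), and leaving out 1 library at a time moved it between -1.72 and -0.29. Hoxa4 was between 0.641 and 4.21 CPM in Eln-/- libraries and between 0 and 3.03 CPM in Eln+/+ ones (log2 fold change 0.12, SE 1.21).

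Group 5 held some of the highest levels. Hoxa5, which is needed in the mouse for lung and airway development, was at 22.1, 14.3, 14.3, 14.1 and 8.03 CPM in Eln-/-, against 0.0661, 23.3, 37.8, 29.8 and 24.0 CPM in Eln+/+. In CPM, Eln+/+ replicates 2 to 5 lie above every Eln-/- library. Eln+/+ replicate 1, a library with few detected genes, had almost none. By total counts alone this order did not hold, with Eln-/- replicate 1 at 28.7 total-count CPM, above Eln+/+ replicate 5 at 27.1. Means were 14.6 ± 5.01 CPM in Eln-/- libraries and 23.0 ± 14.1 CPM in Eln+/+ ones, and the log2 fold change was -0.66 (SE 0.95, unadjusted p = 0.502 in edgeR's test). The Hoxa5 window printed above is the richest in CpG of the 4.

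Hoxb5 was at 13.9, 7.88, 6.56, 43.9 and 14 CPM in Eln-/-, against 34.6, 13.4, 18.9, 19.9 and 16.2 CPM in Eln+/+. The highest CPM of each genotype was in Eln-/- replicate 4 and Eln+/+ replicate 1, both libraries with few detected genes. Scaled by total counts alone these were 21.3 and 19.4 total-count CPM, and Eln+/+ replicate 4 was the highest of all at 24.0. Means were 17.2 ± 15.3 CPM in Eln-/- libraries and 20.6 ± 8.22 CPM in Eln+/+ ones (log2 fold change -0.26, SE 0.63). Hoxb5 exons overlap the antisense gene Hoxb5os, whose CPM was also high in those libraries.

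Hoxc5 had the largest negative fold change of the family. It was at 5.38, 2.85, 0, 0.0726 and 9.54 CPM in Eln-/-, against 10.3, 8.59, 22.9, 5.45 and 12.3 CPM in Eln+/+. In CPM, the Eln+/+ libraries were all at or above 5.45, and 1 Eln-/- library lies among them. By total counts alone, Eln-/- replicate 1 also lay above Eln+/+ replicates 1 and 4. Means were 3.57 ± 4.01 CPM in Eln-/- libraries and 11.9 ± 6.63 CPM in Eln+/+ ones, with a log2 fold change of -1.74 (SE 1.35, unadjusted p = 0.222 and adjusted p = 1.00 in edgeR's test), which lay between -2.51 and -1.36 when 1 library at a time was left out. The fold change was -3.83 with limma-voom, -2.92 with the replicate number as a block and -1.77 with total counts only. Hoxc5 exons overlap those annotated for Hoxc10.

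In groups 6 and 7 the clusters again differed in sign. Hoxb6 was at 15.6, 7.62, 18.5, 24.8 and 14.8 CPM in Eln-/-, against 5.89, 3.60, 11.3, 23.6 and 10.6 CPM in Eln+/+. In CPM, 4 of the 5 lowest values were in Eln+/+ libraries, and the 2 highest were 1 of each genotype. By total counts alone, Eln+/+ replicate 3 lay above Eln-/- replicates 2, 4 and 5. Means were 16.3 ± 6.23 CPM in Eln-/- libraries and 11 ± 7.74 CPM in Eln+/+ ones (log2 fold change 0.56, SE 0.65). Hoxb6 has no annotated exon overlap. Hoxc6 was at 8.80, 4.73, 4.22, 0 and 2.68 CPM in Eln-/-, against 0, 3.62, 10.3, 11.4 and 5.30 CPM in Eln+/+, with means of 4.08 ± 3.22 CPM in Eln-/- libraries and 6.11 ± 4.72 CPM in Eln+/+ ones (log2 fold change -0.58, SE 1.41). The 3 lowest Hoxc6 values, at most 2.68 CPM, were those of the libraries with few detected genes. Hoxa6 did not exceed 1.49 CPM in Eln-/- or 2.33 CPM in Eln+/+.

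Hoxa7 was at 26.9, 10.1, 15.5, 0 and 2.68 CPM in Eln-/-, against 2.38, 10.2, 53.9, 24.6 and 4.26 CPM in Eln+/+. It spanned from almost nothing to a leading Hox gene within each genotype, and its lowest values were those of the 3 libraries with few detected genes. Means were 11 ± 10.8 CPM in Eln-/- libraries and 19.1 ± 21.3 CPM in Eln+/+ ones (log2 fold change -0.79, SE 1.26). Without Eln+/+ replicate 3 it was 0.09. Hoxb7 was at 10.4, 7.59, 16.3, 0 and 31.4 CPM in Eln-/-, against 1.45, 3.53, 16.4, 14.3 and 9.60 CPM in Eln+/+ (0.54 as log2 fold change, SE 1.18).

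Group 8 was low. Hoxb8 did not exceed 4.22 CPM in Eln-/- or 6.28 CPM in Eln+/+, and Hoxc8 did not exceed 4.01 CPM in Eln-/- or 5.82 CPM in Eln+/+, with 0 in the 3 libraries with few detected genes. Hoxd8 was at 0.507, 0.122, 0, 0 and 0 CPM in Eln-/-, against 0.595, 0.677, 0, 0.143 and 0 CPM in Eln+/+, too few for the test.

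The high-numbered genes, which pattern the lower trunk, the limbs and the urogenital tract, were low, and most were found in few libraries. Hoxa9 and Hoxc9 each had counts in 7 of the 10. Hoxa9 was at 4.13, 2.15, 2.45, 0 and 0.264 CPM in Eln-/-, against 0, 0.0688, 2.09, 0.744 and 0 CPM in Eln+/+. Eln-/- replicates 1 to 3 had the 3 highest values, with Eln+/+ replicate 3 just below them. Means were 1.80 ± 1.70 CPM in Eln-/- libraries and 0.581 ± 0.900 CPM in Eln+/+ ones, and the log2 fold change of 1.62 (SE 1.66) was the highest of the family and within its SE. It lay between 1.06 and 3.10 when 1 library at a time was left out, 3.10 being without Eln+/+ replicate 3, and was 3.48 with the replicate number as a block. Hoxc9 was at 1.29, 1.46, 1.13, 1.16 and 0 CPM in Eln-/-, against 0, 0.379, 5.66, 0.665 and 0 CPM in Eln+/+, with a log2 fold change of -0.41 (SE 1.63).

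The other 5 genes of groups 9 to 11 were not tested because too few libraries had counts. Hoxa10 had 116 and 547 counts in Eln-/- replicates 1 and 2 and 137 in Eln+/+ replicate 2. Hoxa11 had 106 counts, Hoxd9 had 33 and Hoxc10 had 64 in Eln-/- replicate 2. Hoxc10 had a further 41 in Eln-/- replicate 1. Summed over libraries, Hoxb9 had 194 counts in Eln-/- and 88 in Eln+/+. Eln-/- replicate 2 was thus the only library with counts of Hoxa11 or Hoxd9, and it had the most Hoxa10. Groups 9 to 11 together took 2.68, 7.75, 1.10, 0.723 and 0.0601% of the per-kb Hox level in Eln-/-, against 0.0468, 0.982, 2.00, 0.918 and 0% in Eln+/+. The genotypes overlapped, and 1 Eln-/- library held the highest share. Eln-/- replicate 2 held 49802732 counts, with a floor of 0.0457 CPM. Of 3 kidney and intermediate mesoderm markers measured, a tissue rich in Hoxa11 and Hoxd9, that library had 0.0152 CPM in sum, with Pax2 and Lhx1 at 0. Pax2 and Lhx1 each had counts in only 1 of the 10 libraries. The third marker, Six2, was between 0.0152 CPM (1 count) and 13.2 CPM in Eln-/- libraries and at 0 in every Eln+/+ one. Six2 was too low for the test and was chosen after its values were seen. Of all genes tested, 0.305% (48 genes) likewise had no overlap between genotypes. In Eln-/- replicate 2, cartilage and vertebra markers summed to 37.7 CPM, within the range of 4.43 to 134 CPM over the 10 libraries. The source of the high-numbered Hox transcripts was not tested.

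The clusters also hold non-coding genes, and Hotairm1 was higher in the 3 libraries with few detected genes than in any other. There were 16 other measured genes inside the cluster intervals, 9 in Hoxa, 3 in Hoxb, 0 in Hoxc and 4 in Hoxd. Hotairm1, a long non-coding RNA of the strand opposite to the Hoxa genes, was at 8.61, 15.6, 24.2, 208 and 56.8 CPM in Eln-/-, against 181, 10.7, 16, 19.9 and 29.4 CPM in Eln+/+. It lay between 56.8 and 208 CPM in those 3 libraries and between 8.61 and 29.4 CPM in the other 7. Genotype means were 62.7 ± 83.3 CPM in Eln-/- libraries and 51.4 ± 72.6 CPM in Eln+/+ ones (log2 fold change 0.29, SE 1.00).

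Gm15050, another transcript of the opposite strand in Hoxa, was between 16.2 and 65.6 CPM in the 3 libraries and between 4.70 and 13.1 CPM in the other 7. For Hoxaas3 the ranges were 7.16 to 40.4 CPM and 1.01 to 7.01 CPM, and for Hoxb5os 17.6 to 31.4 CPM and 2.11 to 10.6 CPM. Scaled by total counts alone, Hotairm1 still stood apart, at 48.1 to 101 total-count CPM in the 3 libraries and 11.2 to 33.3 in the other 7. The other 3 then overlapped, with 13.7 to 31.8 in the 3 libraries and 6.08 to 15.3 in the other 7 for Gm15050, 6.06 to 19.6 and 1.31 to 8.13 for Hoxaas3, and 9.87 to 26.6 and 2.88 to 12.3 for Hoxb5os. Between genotypes, Hoxb5os averaged 15.8 ± 13.5 CPM in Eln-/- libraries and 9.25 ± 5.62 CPM in Eln+/+ ones (log2 fold change 0.77, SE 0.82), and Hoxb3os 5.84 ± 1.86 CPM in Eln-/- libraries and 3.39 ± 1.87 CPM in Eln+/+ ones (0.78, SE 0.76). In Hoxd, the highest neighbours were Haglr and Hoxd3os1. Haglr was at 0.365 ± 0.396 CPM in Eln-/- libraries and 1.54 ± 1.59 CPM in Eln+/+ ones (log2 fold change -2.04, SE 1.52, unadjusted p = 0.206 in edgeR's test). Hoxd3os1, at 0.557 ± 0.639 CPM in Eln-/- libraries and 0.359 ± 0.797 CPM in Eln+/+ ones, was too low for the test. No non-coding neighbour passed the adjusted threshold, and over all genes tested 0% did. What the low number of detected genes contributes to these levels was not tested.

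**Figure D5:**
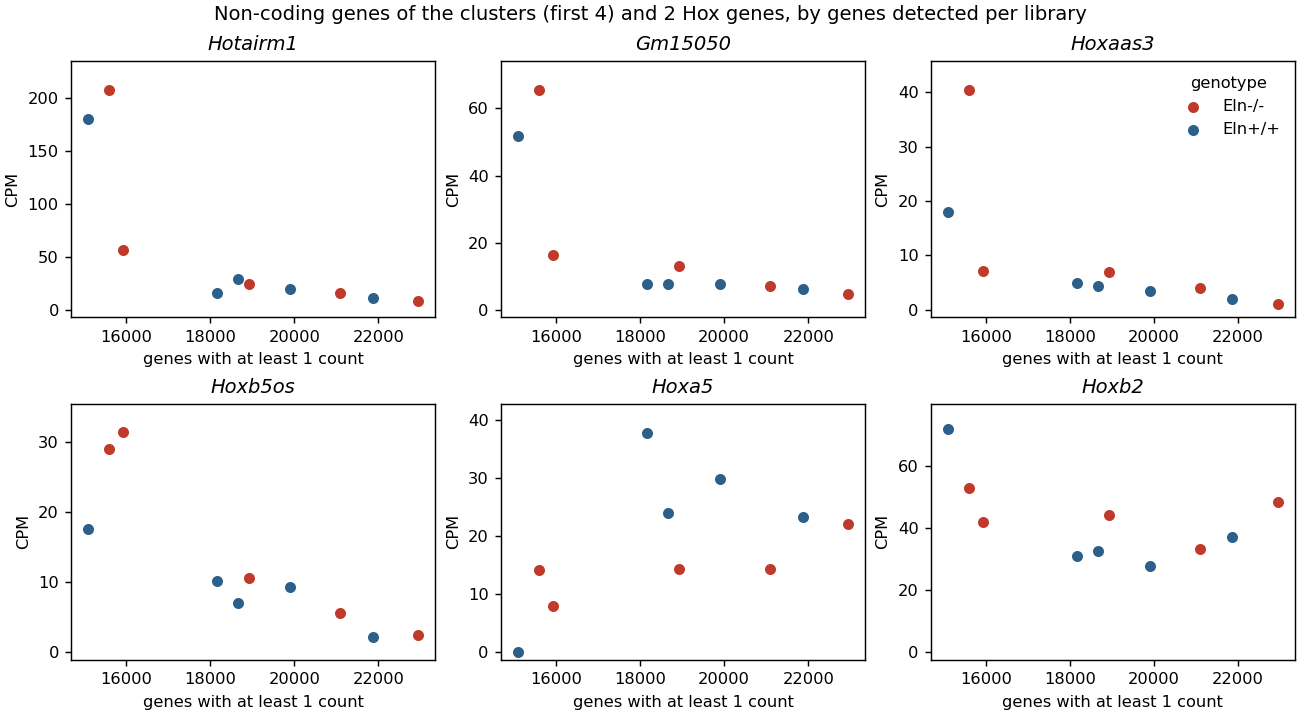
Level in CPM (vertical) of 4 non-coding genes of the clusters and of Hoxa5 and Hoxb2 against the number of genes with at least 1 count in a library (horizontal), 1 point per library. Hotairm1 stands at 208 and 181 CPM in the 2 libraries with the fewest genes, Eln-/- replicate 4 and Eln+/+ replicate 1, while Hoxa5 is at 14.1 and 0.0661 CPM there.

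The partners and regulators of HOX proteins were measured alongside. All 9 cofactor genes of the PBX, MEIS and PKNOX families, TALE homeodomain proteins that bind DNA with HOX proteins, were tested. None passed the adjusted threshold, and neither did any of the 15718 genes tested. The cofactors had 2 positive and 7 negative fold changes and a median of -0.40. Over all genes tested, 51.5% were positive and the median was 0.02. Meis1 was at 154, 113, 68.7, 19.0 and 46.2 CPM in Eln-/-, against 40.9, 145, 92.3, 94.4 and 76.7 CPM in Eln+/+ (means 80.1 ± 53.6 CPM in Eln-/- libraries and 89.8 ± 37.5 CPM in Eln+/+ ones, log2 fold change -0.16, SE 0.56). Meis2 averaged 21.9 ± 16.1 CPM in Eln-/- libraries and 28.8 ± 21.6 CPM in Eln+/+ ones, and Meis3 averaged 18.4 ± 11.7 CPM in Eln-/- libraries and 30.9 ± 10.0 CPM in Eln+/+ ones. Log2 fold changes were -0.40 for Meis2, -0.75 for Meis3, -0.82 for Pbx2, 0.29 for Pbx3, -0.41 for Pbx4, -0.10 for Pknox1 and 0.09 for Pknox2. Meis1 was lowest in the 3 libraries with few detected genes. Summed over the 9 genes, those libraries held 48.5, 79.8 and 91.5 CPM, and the highest Eln-/- library held 422 CPM and the highest Eln+/+ library 441 CPM. Scaled by total counts alone, the cofactors summed to between 23.5 and 67.5 total-count CPM in those 3 libraries and between 197 and 602 in the other 7.

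Of 23 chromatin regulators of the Polycomb and Trithorax groups 22 were tested, and 0 passed, against 0% of all genes tested. The 22 had 7 positive and 15 negative fold changes and a median of -0.22. Over all genes tested, 51.5% were positive and the median was 0.02. Rnf2, the ubiquitin ligase of Polycomb complex PRC1, averaged 87.0 ± 45.6 CPM in Eln-/- libraries and 132 ± 70.3 CPM in Eln+/+ ones (log2 fold change -0.60, SE 0.72). Eed, a core subunit of PRC2, averaged 39.6 ± 11 CPM in Eln-/- libraries and 41.3 ± 14.6 CPM in Eln+/+ ones, and Ash2l, a subunit shared by the Trithorax-type methyltransferases, 34.4 ± 21.5 CPM in Eln-/- libraries and 43.0 ± 28.7 CPM in Eln+/+ ones. The smallest unadjusted p-values in edgeR's test were 0.317 for Pcgf1 (log2 fold change -0.84), a PRC1 subunit, and 0.346 for Ezh1 (-0.99), a PRC2 methyltransferase. In the 3 libraries with few detected genes Rnf2 was between 9.65 and 71.2 CPM and Ash2l at most 15.8 CPM, below every other library (at least 108 and 34.4 CPM).

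Among 15 genes upstream of the clusters, 12 were measured, 9 were tested and 0 passed, against 0% of all genes tested. The 9 had 5 positive and 4 negative fold changes and a median of 0.24. Over all genes tested, 51.5% were positive and the median was 0.02. Rarb, a retinoic acid receptor that is itself a retinoic acid target, was at 14.9, 29.4, 17.2, 3.85 and 0 CPM in Eln-/-, against 14.4, 47.8, 48.3, 18.3 and 39.8 CPM in Eln+/+. In 3 of the 5 Eln+/+ libraries it was higher than in any Eln-/- library, and the log2 fold change was -1.37 (SE 1.13, unadjusted p = 0.250 in edgeR's test). Gmnn, which binds Hox proteins and Polycomb and is best known for licensing of DNA replication, averaged 42.9 ± 22.5 CPM in Eln-/- libraries and 36.4 ± 25.5 CPM in Eln+/+ ones (log2 fold change 0.24), and Rara, another retinoic acid receptor, 16.6 ± 9.30 CPM in Eln-/- libraries and 10.5 ± 7.77 CPM in Eln+/+ ones (0.66). In CPM, Gmnn was between 44.7 and 81.8 in the 3 libraries with few detected genes and between 20.7 and 38.3 in the other 7. By total counts alone they overlapped, and Eln-/- replicate 2 had the highest Gmnn level of all libraries. Cdx1, which helps to switch on middle Hox genes in the early embryo, was at 0.219 CPM in Eln-/- replicate 1 and 0 elsewhere. Evx1, next to Hoxa13, reached 0.972 CPM in Eln-/- libraries and 1.09 CPM in Eln+/+ ones.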

How the data were processed

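Bulk mRNA libraries of sorted aortic cells were made with a low-input kit, per the labels' protocols. The authors deposited 1 table of estimated counts per gene and library, not scaled for depth. STAR, DESeq2 and the build mm10 are named in the submitters' processing notes. For the counting program, annotation and strand, details were not given in the sources used here. Of the values of a library, between 23.5% and 48.8% were not whole (tolerance 1e-06), so the deposited expected counts were rounded to whole numbers.

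In GENCODE M21 (GRCm38), 27046 of 28165 genes (96.0%) had identical chromosome, strand and span, once 1 base was taken off each deposited end. Exon lengths and exon overlaps came from that annotation, on either strand. Promoter windows came from RefSeq.

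Genes were filtered with edgeR's filterByExpr, which left 15718, scaled with TMM factors and tested with edgeR's quasi-likelihood test (two-sided, genotype as the only term) with Benjamini-Hochberg adjustment at 0.05. An SE is the log2 fold change divided by the square root of F. Groups came from the genotype in the labels, with 5 libraries each. The fit was also run on simulated counts with known fold changes. Their recovery was required only at a spread set well below that of these libraries, whose biological coefficient of variation in edgeR was 1.16. Power at the observed spread is not given here. Alternatives were other scaling, no filter, DESeq2, limma-voom, the replicate number as a block, other gene lengths, leaving out libraries and, added after the data were seen, levels scaled by total counts alone. The tools were edgeR 4.0.16, DESeq2 1.42.0 and limma 3.58.1 in R 4.3.3.

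Every library's value is given for the 3 Hox genes of each cluster with the highest mean CPM and the 6 tested with the smallest unadjusted p. Non-coding neighbours named are the 2 of highest mean CPM in a cluster; cofactors are named one by one, and of other regulators the 3 highest and the 2 of smallest p. Other genes given by library, and Hoxaas3, Cdx1 and the markers Tek, Six2, Cnn1 and Myh11, were chosen after their values were seen. So were Cdh5, Tie1, Kdr and the fibroblast markers given by name. The members and gene lists were chosen with earlier results of these data known. Genes among these that are not reported here stay in the counts, sums and shares.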

Additional observations from a re-analysis of the deposited data

Results flagged for a closer look

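The following values stood apart from the other 4 libraries of their genotype by Dixon's ratio for 5 samples (above 0.71), which chance alone gives in about 1 of 20 groups. In Eln-/- replicate 1 these were Hoxd1 at 0.753 CPM and Hoxd8 at 0.507 CPM. In Eln-/- replicate 2 they were Hoxa10 at 8.34 CPM, Hoxa11 at 1.62 CPM and Hoxd9 at 0.503 CPM, with the shares of paralogue group 10 (4.23%) and group 11 (0.976%) of the per-kb Hox level. Eln-/- replicate 3 had Hoxb1 at 2.11 CPM, where the other Eln-/- libraries had 0. Eln-/- replicate 4 had Hoxb3 at 9.51 CPM, Hoxb5 at 43.9 CPM, Hotairm1 at 208 CPM, Gm15050 at 65.6 CPM and Hoxaas3 at 40.4 CPM, and Eln-/- replicate 5 had Hoxc9 at 0. Among the Eln+/+ libraries, replicate 1 had Hoxb2 at 71.8 CPM, Hotairm1 at 181 CPM, Gm15050 at 51.9 CPM, Hoxaas3 at 17.9 CPM and a Hoxb share of 75.4%. Eln+/+ replicate 2 had Hoxa10 at 1.57 CPM, Hoxb1 at 0.0115 CPM and a group 10 share of 0.728%. Eln+/+ replicate 3 had Hoxc4 at 93.6 CPM, Hoxc9 at 5.66 CPM and a Hoxc share of 38.7%, and Eln+/+ replicate 4 had Hoxb9 at 1.35 CPM. A gene at 0 in 4 libraries is picked out by any count in the fifth, which covers Hoxa10 and Hoxb1 in Eln+/+ and Hoxa11, Hoxb1, Hoxd1 and Hoxd9 in Eln-/-. All levels here are CPM with TMM factors, and those of Eln-/- replicate 4 and Eln+/+ replicate 1 are raised by their factors. Scaled by total counts alone, Hoxb2 in Eln+/+ replicate 1 was at 40.3 total-count CPM, within the 33.6 to 50.7 of the other Eln+/+ libraries, and Hoxb5 in Eln-/- replicate 4 was at 21.3, where Eln-/- replicate 1 had 18.0.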

How the results depend on the processing

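The count of 0 Hox genes past the threshold was the same under all 18 alternatives, while the median fold change of the Hox genes ranged with the library left out. Over all genes, DESeq2 called 6, limma-voom 2 and edgeR without Eln+/+ replicate 2 and Eln-/- replicate 1 together 1, and leaving out 1 library at a time gave 0 to 1, the 1 being without Eln-/- replicate 1. With the replicate number as a block edgeR called 0 genes and 0 Hox genes, and 71 genes had an unadjusted p under 0.05 against 81 without the block. Deviations of same-numbered libraries correlated at -0.556, 0.51, 0.118, -0.381 and 0.092, and only number 2 matched its own number best. The labels do not say whether a number marks a shared litter or batch. These correlations cannot settle it, since the libraries also differ widely in the number of detected genes.

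Of the 22 log2 fold changes, 13 kept their sign in every setting, and the others, all within their SE, turned in at least 1. Hoxa2 was 0.69 with limma-voom and 0.31 with the block, Hoxa4 was -0.09 with total counts only, Hoxb7 was -0.32 with limma-voom, and Hoxc9 was 1.28 with limma-voom and 1.32 with the block. Hoxb3 was -0.21 with the block and -0.01 without Eln-/- replicates 4 and 5 and Eln+/+ replicate 1, a setting in which Hoxb8 was 0.98. Leaving out 1 library at a time gave -0.64 to 0.28 for Hoxa2, -0.32 to 0.35 for Hoxa4, -1.43 to 0.09 for Hoxa7, -0.17 to 1.31 for Hoxb3, -0.95 to 0.04 for Hoxb5, -0.08 to 0.87 for Hoxb7, -1.08 to 0.25 for Hoxb8, -1.38 to 0.19 for Hoxc8 and -0.72 to 1.91 for Hoxc9. The cause of these changes of sign was not tested.

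Without the 14 Hox genes whose exons overlap another gene, the mean share of Hoxa was 25.7% in Eln-/-, that of Hoxc 18.0% in Eln-/- and 32.1% in Eln+/+, and that of Hoxd 0.441% in Eln-/-. Group 1 was then 0.570% in Eln-/- and 0.00337% in Eln+/+, groups 2 and 3 were 0% in both, group 4 was 17.2% in Eln-/- and 29.5% in Eln+/+, group 6 was 30.8% in Eln-/- and 22.2% in Eln+/+, group 8 was 6.90% in Eln+/+, and the weighted number was 5.82 in Eln-/- and 5.45 in Eln+/+; these follow from the genes removed. With CPM not divided by length, group 2 was 29.9% in Eln-/- and group 3 was 5.29% in Eln-/- and 6.31% in Eln+/+. With the longest transcript as length, group 3 was 4.22% in Eln-/- and 5.19% in Eln+/+ and group 5 was 24.1% in Eln+/+. Depth limits the low genes, since 3 counts correspond to between 0.0411 and 0.218 CPM in Eln-/- and between 0.0344 and 0.198 CPM in Eln+/+.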
